A study of Mus musculus with 16 samples.

Results

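Apolipoproteins are the protein components of lipoproteins, the particles that carry cholesterol and triglyceride through blood and lymph. The genes described here are 10 mouse apolipoprotein genes, taken by symbol (Apoe, Apoa1, Apoa4, Apoa5, Apob, Apoc1, Apoc2, Apoc3, Apod and Apom) out of 24934 gene symbols listed in any of 4 tissue tables. The tables of liver and epididymal white fat list all 10, and those of brown fat and inguinal white fat list 9, without Apoc2. Of the members, 7 had enough signal to be tested in each fat depot and 9 in liver, where a mean regularized log2 value of at least 3 was required. With sunitinib, no member passed the test adjusted over all genes in any of the 4 tissues.

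The animals were C57BL/6 mice, 24 weeks old, that received either vehicle or sunitinib, and the tissues were liver, brown fat and the white fats of the epididymal and inguinal depots. The series comprises 8 mice, 4 per treatment, and 2 RNA sequencing libraries for each tissue and treatment, 16 in all. All groups share the strain and age, and no allele or transgene is named. Sunitinib (Sutent) is an oral inhibitor of receptor tyrosine kinases, among them the receptors for vascular endothelial and platelet-derived growth factors; its dose and duration are not stated in the labels. Nor do the labels say whether a library was 1 mouse or a pool, so p-values measure the spread between libraries, which may be partly technical.

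Liver and intestine make most circulating apolipoproteins. Apob is the structural protein of very low density lipoproteins, Apoa1 that of high density lipoproteins, and the small exchangeable proteins Apoa4, Apoa5, Apoc1, Apoc2 and Apoc3 move between particles and act on lipoprotein lipase or on particle uptake. Apoe is the ligand by which remnant particles are taken up by cells, and it is also made by adipocytes and macrophages. Apod, a lipocalin, and Apom, a carrier of sphingosine 1-phosphate, belong to another protein family than the rest.

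Several of these genes are neighbours. Of the 10 members, 8 matched RefSeq's promoter table for GRCm38.p6 by symbol, all but Apoc1 and Apoc3. Apoa1, Apoa4 and Apoa5 lie on the plus strand of chromosome 9, and Apoe and Apoc2 on the minus strand of chromosome 7. The 250 bases before the start are shown for Apoe, the member whose sunitinib libraries lay above vehicle in all 3 fats, and for Apoa5 and Apoa1, neighbours of which the first differed most in liver and the second did not stand apart. The Apoe window is chr7:19699189-19699438, minus strand, before the farthest upstream of 3 listed starts. The Apoa5 window is chr9:46268358-46268607, before the farther upstream of 2 listed starts, and the Apoa1 window is chr9:46228380-46228629, both plus strand. These GRCm38.p6 positions are not those of mm9, the build that the submitters' notes name. Capitals mark the matches found in the Apoa5 window. An E box (CACGTG) begins 82 bases upstream of the start used, and a TATA box (TATAAA) begins 31 bases upstream of it.
Apoe: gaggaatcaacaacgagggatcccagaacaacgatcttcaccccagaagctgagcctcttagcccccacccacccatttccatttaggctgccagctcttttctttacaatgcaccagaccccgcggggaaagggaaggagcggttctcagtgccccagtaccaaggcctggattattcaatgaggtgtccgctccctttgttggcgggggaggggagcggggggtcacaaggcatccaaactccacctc
Apoa5: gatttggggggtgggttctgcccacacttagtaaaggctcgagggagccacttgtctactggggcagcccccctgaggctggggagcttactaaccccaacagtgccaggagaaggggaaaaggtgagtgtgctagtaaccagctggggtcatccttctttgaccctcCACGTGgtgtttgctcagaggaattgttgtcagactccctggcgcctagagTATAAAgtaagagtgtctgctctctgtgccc
Apoa1: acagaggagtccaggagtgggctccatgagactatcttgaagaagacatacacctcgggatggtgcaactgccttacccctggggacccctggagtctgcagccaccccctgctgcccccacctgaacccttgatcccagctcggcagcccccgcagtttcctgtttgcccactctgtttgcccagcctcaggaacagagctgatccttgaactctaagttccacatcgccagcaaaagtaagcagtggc
On both strands, the letters CACGTG were present in 6.02% and TATAAA in 12.4% of 32851 promoters of the same length. Of the 8 matched members, 1 held CACGTG and 2 held TATAAA, the other being Apob. The hexamer of nuclear receptors (AGGTCA) occurred in 1 of 8, Apoc2, against 14% of all promoters. CCAAT (33.8% of all promoters), GGGCGG (32.7%), AGGTCANAGGTCA (0.0335%) and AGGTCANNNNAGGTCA (0.0152%), of which the last 2 contain AGGTCA, were in none of the 8 windows. A match is a description of the letters, not of a site in use.

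Under vehicle, the members comprised genes far higher in liver than in fat, genes well expressed in both, and 1 gene, Apod, with signal in fat and almost none in liver. All values are regularized log2 expression, a scale on which a difference of 1 is a doubling and changes of genes with few reads are understated. Each tissue's table was normalized on its own, so the order of tissues is a description with no test. Levels are not compared between genes, since the values are not per length.

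Apoa1 was 17.73 and 17.47 in the vehicle livers. In the vehicle fats it was 6.10 and 6.48 in brown, 6.39 and 6.69 in epididymal and 6.31 and 6.14 in inguinal fat. In the order epididymal, brown, inguinal, neighbouring ranges overlapped. Apob was 15.74 and 15.85 in liver, 6.21 and 6.52 in epididymal, 5.59 and 5.88 in brown and 5.64 and 5.47 in inguinal fat. Its epididymal range lay above those of brown and inguinal fat, which overlapped. Apoc3, which slows lipolysis and remnant clearance, was 15.24 and 15.09 in liver against 5.18 and 5.43, 4.70 and 4.37, and 4.27 and 4.37 in epididymal, inguinal and brown fat. Here too only the brown and inguinal ranges overlapped.

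Apoa5, which promotes triglyceride clearance by lipoprotein lipase, was 14.78 and 14.69 in liver. Its fat values were 4.27 and 4.32 in epididymal, 3.86 and 3.81 in inguinal and 3.67 and 3.83 in brown fat, the last 2 overlapping. Apoa4, otherwise known from intestine, was 12.10 and 12.14 in liver and under the limit of 3 in every fat, with vehicle means of 2.06 in brown, 2.70 in epididymal and 2.51 in inguinal fat. Apom was 11.50 and 11.63 in liver and 2.15, 1.99 and 0.60 on average in brown, epididymal and inguinal fat. Both genes were therefore tested in liver alone. Apoc2, the activator of lipoprotein lipase, was 6.47 and 6.25 in liver and -0.94 and -0.95 in epididymal fat. The GENCODE annotation has a read-through gene that overlaps both Apoc2 and its neighbour Apoc4, and how shared reads were counted is not stated, so the level of Apoc2 is uncertain.

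Apoe and Apoc1 were above 10 in every vehicle library. Apoe was 18.38 and 18.25 in liver, 15.60 and 15.57 in epididymal, 15.22 and 15.37 in inguinal and 12.58 and 12.79 in brown fat, and no 2 of these ranges overlapped. Apoc1, which inhibits particle uptake and several lipid transfer steps, was 16.64 and 16.49 in liver, 12.38 and 12.16 in brown, 11.38 and 11.34 in epididymal and 10.68 and 10.75 in inguinal fat. For Apoc1 brown fat thus came before the white depots, with no overlap between neighbours, whereas it came last for Apoe. Apod was highest in inguinal fat at 9.73 and 9.19, followed by epididymal fat at 8.35 and 8.56 and brown fat at 6.93 and 7.68. In liver Apod was -1.03 in both vehicle libraries.

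**Figure D1:**
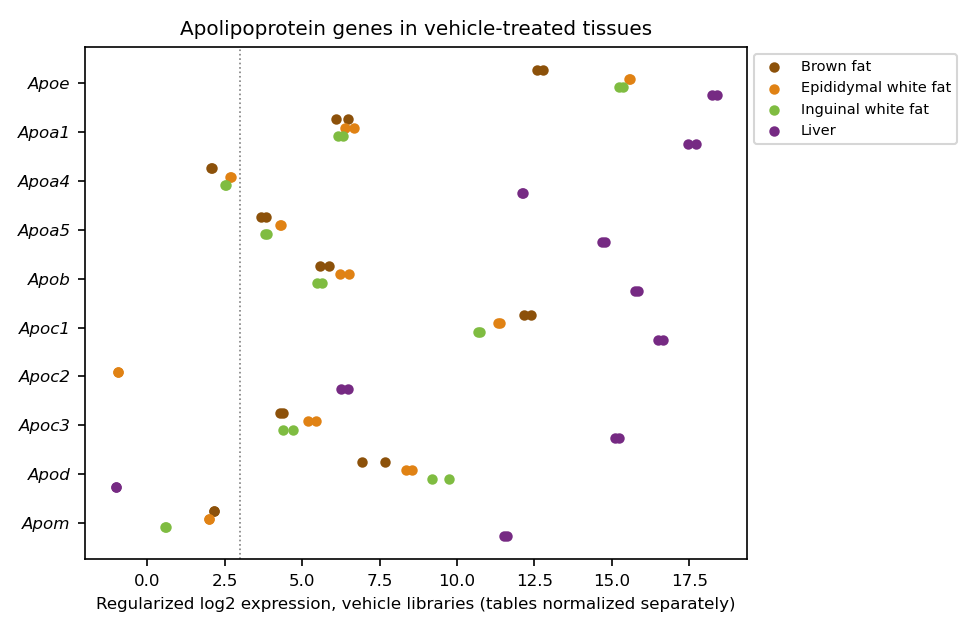
Regularized log2 expression (x axis) of the 10 apolipoprotein genes (y axis) in the 2 vehicle libraries of each tissue, 1 point per library, with the dotted line at the test's limit of 3. Apoa1, Apoa5, Apob and Apoc3 sit between 14.69 and 17.73 in liver and between 3.67 and 6.69 in fat, whereas Apod is highest in inguinal fat and at -1.03 in liver.

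The distance between liver and fat was much alike for 4 members tested in every tissue, and near it for Apoa4 and Apom. In brown fat, the vehicle mean of liver minus that of fat was 11.31 for Apoa1, 10.99 for Apoa5, 10.06 for Apob and 10.84 for Apoc3. Against epididymal fat these distances were 11.06, 10.44, 9.43 and 9.86, and against inguinal fat 11.38, 10.90, 10.24 and 10.63, in the same order. Apoa4 and Apom were under the limit of 3 in every fat. Against brown, epididymal and inguinal fat their distances were 10.06, 9.42 and 9.61 for Apoa4 and 9.42, 9.57 and 10.97 for Apom. The median over 20 hepatocyte genes, led by albumin (Alb) and transthyretin (Ttr), was 10.25, 9.63 and 10.16 against brown, epididymal and inguinal fat. Of those 20 genes, 16, 13 and 16 lay 9 or more below their liver level. Apoa2 and Apoh, liver-made apolipoproteins outside the 10, were at 10.71 and 10.58 against brown fat. For Apoe the distance was 5.64, 2.73 and 3.02 in the same order of fats, and for Apoc1 4.30, 5.21 and 5.85. Whether the fat values of the 4 liver-type genes come from fat cells or from RNA of other tissue was not tested.

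Marker genes matched the labelled tissues. Ucp1, the uncoupling protein of brown fat, ranged from 16.46 to 16.93 in the brown fat libraries and from 4.66 to 7.58 in the white ones; adiponectin (Adipoq) ranged from 13.46 to 16.21 in the fats, and Alb from 20.13 to 20.33 in liver. Markers of other tissues differed between libraries: the skeletal muscle list averaged 7.90 and 11.60 in the vehicle and 9.73 and 9.04 in the sunitinib libraries of brown fat. In inguinal fat it averaged 13.60 and 12.43 against 11.59 and 8.36, with the second sunitinib library lowest. Over genes, the SD of the difference between the 2 sunitinib libraries was 0.590 in inguinal fat and 0.119 to 0.262 in the other 3 tissues. Over all genes tested, limma with Benjamini-Hochberg adjustment passed 0 of 13044 in brown fat, 363 of 15526 in epididymal fat, 0 of 14916 in inguinal fat and 24 of 12394 in liver.

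The comparison of sunitinib with vehicle asks which of these genes a kinase inhibitor shifts in the organs that make and use lipoproteins. In brown fat, 0 of 7 members tested passed the adjusted test, where 0% of all genes did. At an unadjusted p below 0.05, 2 of 7 were higher (background 9.13%), namely Apoe and Apoc1, and 0 lower (6.98%). Groups did not overlap for 4 of the 7 (background 50.2%), with Apoe and Apoc1 above and Apoa5 and Apoc3 below vehicle. In epididymal fat, 0 of 7 passed (2.34% of all genes). There 2 of 7, again Apoe and Apoc1, were higher at the unadjusted p (background 8.14%), 0 were lower (11.9%), and the groups of these 2 alone did not overlap (53.7%). In inguinal fat, 0 of 7 passed (0%). There 0 of 7 were higher (3.88%) and 1, Apod, lower (8.8%) at the unadjusted p, and 2 of 7, Apoe above and Apod below vehicle, did not overlap (50.4%). In liver, 0 of 9 passed (0.194%). There 2 of 9, Apoa5 and Apom, were higher (3.47%) and 0 lower (5.17%) at the unadjusted p, and the groups of these 2 alone did not overlap (37.4%).

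The median difference of the tested members, sunitinib minus vehicle, was -0.09 in brown, 0.17 in epididymal and 0.19 in inguinal fat and 0.01 in liver. Over all genes tested it was -0.005, 0.009, 0.010 and 0.003. The share of members that did not overlap was near the background in brown fat, at 4 of 7, and below it in the white depots, at 2 of 7 each, and in liver, at 2 of 9. With only 2 libraries per group, an exact permutation test cannot give a p below 0.333, so single genes are judged by the fit over all genes.

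**Figure D2:**
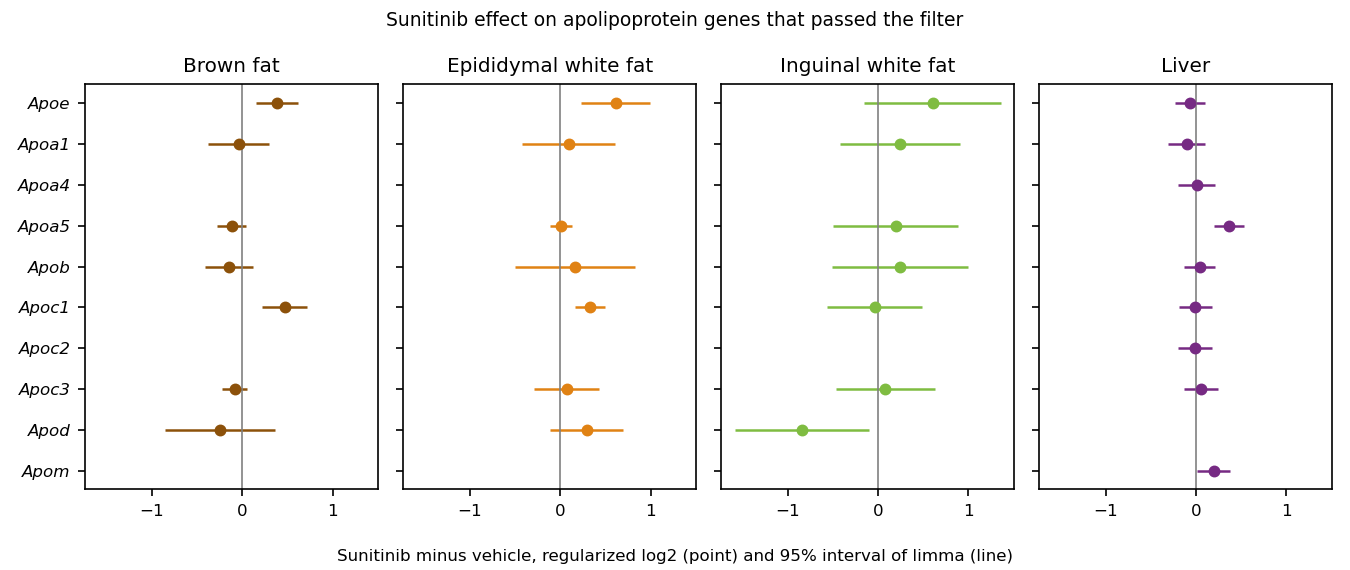
Difference between sunitinib and vehicle in regularized log2 (x axis, point) with its 95% interval from limma, not adjusted for the number of genes (line), for each member tested (y axis) in each tissue, 2 libraries per group. Intervals clear of 0 are those of Apoe and Apoc1 in brown and epididymal fat, Apod in inguinal fat and Apoa5 and Apom in liver, and none of these passed the adjusted test.

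Apoe had sunitinib libraries above vehicle in all 3 fats and not in liver. In brown fat it was 12.58 and 12.79 with vehicle and 13.10 and 13.03 with sunitinib. In epididymal fat it was 15.60 and 15.57 against 16.34 and 16.06, and in inguinal fat 15.22 and 15.37 against 16.14 and 15.65. Every sunitinib fat library was thus higher than both vehicle libraries of its depot. The differences were 0.38 ± 0.09 (SE; 1.31-fold), 0.61 ± 0.15 (1.53-fold) and 0.60 ± 0.28 (1.52-fold) in brown, epididymal and inguinal fat. By limma the unadjusted p was 0.00819, 0.00903 and 0.0917, and the Benjamini-Hochberg adjusted p 0.228, 0.116 and 0.441, so none passed. In liver, Apoe was 18.38 and 18.25 with vehicle and 18.26 and 18.25 with sunitinib, which overlap. The liver difference was -0.06 ± 0.07, with a 95% interval from -0.23 to 0.10.

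Macrophages also make Apoe, and their markers moved with treatment in epididymal fat. There 11 of 17 macrophage markers tested fell and none rose, and the list averaged 10.05 and 10.04 with vehicle and 9.22 in both sunitinib libraries. Trem2 (-1.68), Gpnmb (-1.99) and Cd68 (-1.32), markers of lipid-laden or activated macrophages, were among those that fell. In bulk tissue, fewer cells of a type and less RNA per cell cannot be told apart. Apoe lay on the other side, above vehicle in the same 2 libraries. The adipocyte list averaged 15.09 and 14.90 with vehicle and 15.19 and 15.00 with sunitinib in that depot, with a median difference of 0.11. Of its 12 genes tested, 7 had positive differences. In the adjusted test 1 of them passed as lower and 0 as higher. Markers of epithelium and epididymal duct averaged 5.67 and 6.10 with vehicle and 7.31 and 6.76 with sunitinib there. All 12 tested had positive differences, with a median of 1.22. The part of any of these cell types in the Apoe values was not tested.

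Apoc1 was above vehicle in brown and epididymal fat. The brown fat values were 12.38 and 12.16 with vehicle and 12.80 and 12.68 with sunitinib, and the epididymal ones 11.38 and 11.34 against 11.72 and 11.65. The groups did not overlap in either depot. The difference was 0.47 ± 0.10 (1.39-fold; 95% interval 0.22 to 0.72) in brown and 0.33 ± 0.06 (1.26-fold; 0.16 to 0.49) in epididymal fat. The limma adjusted p was 0.228 and 0.0809, from an unadjusted 0.00423 and 0.00401. In inguinal fat the sunitinib libraries fell on both sides of vehicle, at 10.93 and 10.43 against 10.68 and 10.75, with a difference of -0.04 ± 0.19. In liver Apoc1 was 16.64 and 16.49 against 16.63 and 16.49, a difference of -0.01 ± 0.08 with an interval from -0.19 to 0.18. Endothelial markers lay higher in the brown fat libraries in which Apoe and Apoc1 did. All 12 had positive differences, with a median of 0.39, and the list averaged 10.13 and 9.75 with vehicle and 10.39 and 10.30 with sunitinib, though none passed the adjusted test. The brown adipocyte list had a median difference of 0.06 and the macrophage list of -0.13 in that depot. In epididymal fat, where Apoe and Apoc1 were also higher, the endothelial list went the other way. Its median difference there was -0.40, with 0 of 12 positive and 1 past the adjusted test. The part of these cell types in the values of either depot was not tested.

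Apoa5 had its clearest separation in liver. The liver values were 14.78 and 14.69 with vehicle and 15.14 and 15.07 with sunitinib, so both sunitinib livers were higher. The difference was 0.37 ± 0.07 (1.29-fold; 95% interval 0.20 to 0.53), with a limma p of 6.93e-04 and an adjusted p of 0.128, which did not pass. In brown fat Apoa5 was near the test's limit of 3, at 3.67 and 3.83 against 3.66 and 3.60, and both sunitinib libraries were below vehicle by a mean of 0.12 ± 0.06 (adjusted p = 0.419 by limma). Epididymal values were 4.27 and 4.32 against 4.26 and 4.35, and the difference was 0.01 ± 0.05. Inguinal values were 3.86 and 3.81 against 3.69 and 4.37, where 1 sunitinib library was the lowest and the other the highest. Beside it in liver, the 20 hepatocyte markers had a median difference of -0.003 and none passed.

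Apom was 11.50 and 11.63 with vehicle and 11.83 and 11.69 with sunitinib in liver. Both sunitinib livers were higher, by a mean of 0.19 ± 0.08 (1.14-fold), with an unadjusted limma p of 0.0437 and an adjusted p of 0.558. The other liver members overlapped between treatments. Apoa1 was 17.73 and 17.47 with vehicle and 17.51 and 17.48 with sunitinib, and its difference of -0.10 ± 0.09 had an interval from -0.31 to 0.10. Apob was 15.74 and 15.85 against 15.78 and 15.89, with a difference of 0.04 ± 0.08 and an interval from -0.14 to 0.21. Apoc3, at 15.24 and 15.09 against 15.29 and 15.14, differed by 0.05 ± 0.08, from -0.14 to 0.24. All 3 are structural or regulatory proteins of liver lipoproteins, and differences inside these intervals cannot be told from the spread. Apoa4 was 12.10 and 12.14 against 12.01 and 12.25, and its difference was 0.01 ± 0.09. Apoc2 was 6.47 and 6.25 against 6.38 and 6.32, with a difference of -0.01 ± 0.08.

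Apod in inguinal fat had the largest difference of any member tested. It was 9.73 and 9.19 with vehicle and 8.87 and 8.36 with sunitinib, so both sunitinib libraries were below both vehicle libraries. The difference was -0.85 ± 0.27 (0.556-fold; 95% interval -1.59 to -0.11), with a limma p of 0.0335 and an adjusted p of 0.369. In epididymal fat Apod was 8.35 and 8.56 against 8.55 and 8.94, and its difference was 0.29 ± 0.16 (adjusted p = 0.361 by limma). The epididymal groups overlapped by a narrow margin. In brown fat the 2 vehicle libraries were 6.93 and 7.68 and spanned both sunitinib libraries, 7.05 and 7.06. Fibroblasts and Schwann cells are known sources of Apod. In inguinal fat the fibroblast and progenitor list averaged 12.06 and 11.92 with vehicle and 11.63 and 11.51 with sunitinib, and had a median difference of -0.51. The Schwann cell list averaged 7.39 and 6.72 against 6.89 and 6.93, and the skeletal muscle list had a median difference of -3.04. The macrophage and endothelial lists were also lower, with median differences of -0.41 and -0.34, and 2 of 17 and 0 of 12 of their genes had positive ones. Of these 5 lists no gene passed in inguinal fat, and their part in the Apod values was not tested.

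**Figure D3:**
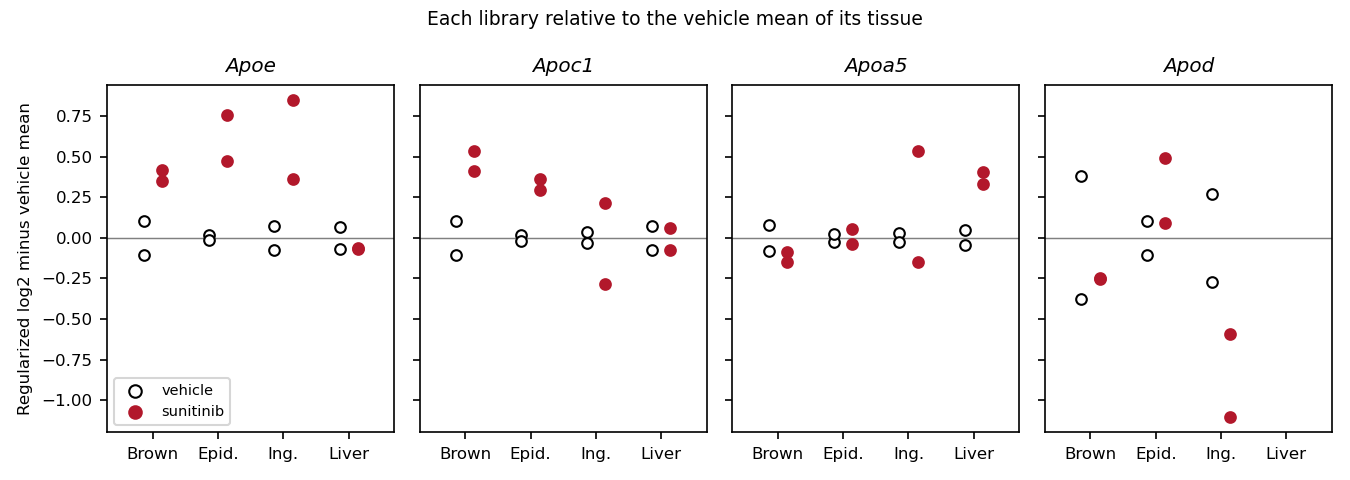
Regularized log2 value of each library minus the vehicle mean of its tissue (y axis) for Apoe, Apoc1, Apoa5 and Apod in brown fat (Brown), the epididymal (Epid.) and inguinal (Ing.) depots and liver, with open points for vehicle and red points for sunitinib. Apoe is above both vehicle libraries in all 6 sunitinib fat libraries, Apoa5 in both livers, and the lower inguinal sunitinib value of Apod lies 1.10 below the vehicle mean; Apod was not tested in liver and has no points there.

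Apoa1, Apoa5, Apob and Apoc3, the liver-type genes, were highest in 1 library of each fat depot. Apob in epididymal fat was 6.21 and 6.52 with vehicle and 6.17 and 6.89 with sunitinib, and Apoa1 was 6.39 and 6.69 against 6.38 and 6.89. For both, the second library was the higher of each pair. In inguinal fat Apob was 5.64 and 5.47 against 5.46 and 6.14, and Apoa1 6.31 and 6.14 against 6.19 and 6.74, so the second sunitinib library was the highest of the 4. Apoc3 was 5.18 and 5.43 against 5.22 and 5.53 in epididymal and 4.70 and 4.37 against 4.43 and 4.79 in inguinal fat, with the same library highest in each depot. None of these differences exceeded the spread: Apob differed by 0.17 ± 0.26 and 0.24 ± 0.27, Apoa1 by 0.10 ± 0.20 and 0.24 ± 0.24, and Apoc3 by 0.07 ± 0.14 and 0.08 ± 0.20 in epididymal and inguinal fat. In brown fat Apoa1 was 6.10 and 6.48 against 6.21 and 6.29, Apob 5.59 and 5.88 against 5.61 and 5.56, and Apoc3 4.27 and 4.37 against 4.24 and 4.24. The second vehicle library was highest for all 3 genes, and the differences were -0.04 ± 0.13, -0.15 ± 0.11 and -0.09 ± 0.05.

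Hepatocyte genes were highest in the same libraries. A set of 13 of the 20 hepatocyte markers, those at least 9 below their liver level in all 3 fats, was chosen after its values were seen. Its mean deviation from the mean of a depot's 4 libraries was 0.18 in the second vehicle library of brown fat. It was 0.31 in the second sunitinib library of epididymal fat and 0.25 in that of inguinal fat, the highest of the 4 in each depot. Over the whole list of 20 the deviations of these libraries were smaller, 0.15 in brown, 0.27 in epididymal and 0.13 in inguinal fat, and again the highest of the 4. Apoa1, Apoa5, Apob and Apoc3 deviated by 0.21, 0.14, 0.22 and 0.09 in the named brown fat library, by 0.30, 0.05, 0.45 and 0.19 in the epididymal one and by 0.40, 0.44, 0.46 and 0.22 in the inguinal one. These were the highest of the 4 libraries for each of the 4 genes in every depot. Other marker lists were also highest there. In the named brown fat library the skeletal muscle, fibroblast and macrophage lists deviated by 2.03, 0.25 and 0.18. In the epididymal one the brown adipocyte list deviated by 0.33, and in the inguinal one the epithelium and epididymal duct list by 0.17. None of these lists was highest in the named library of all 3 depots. The source of the liver-type transcripts was not tested.

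**Figure D4:**
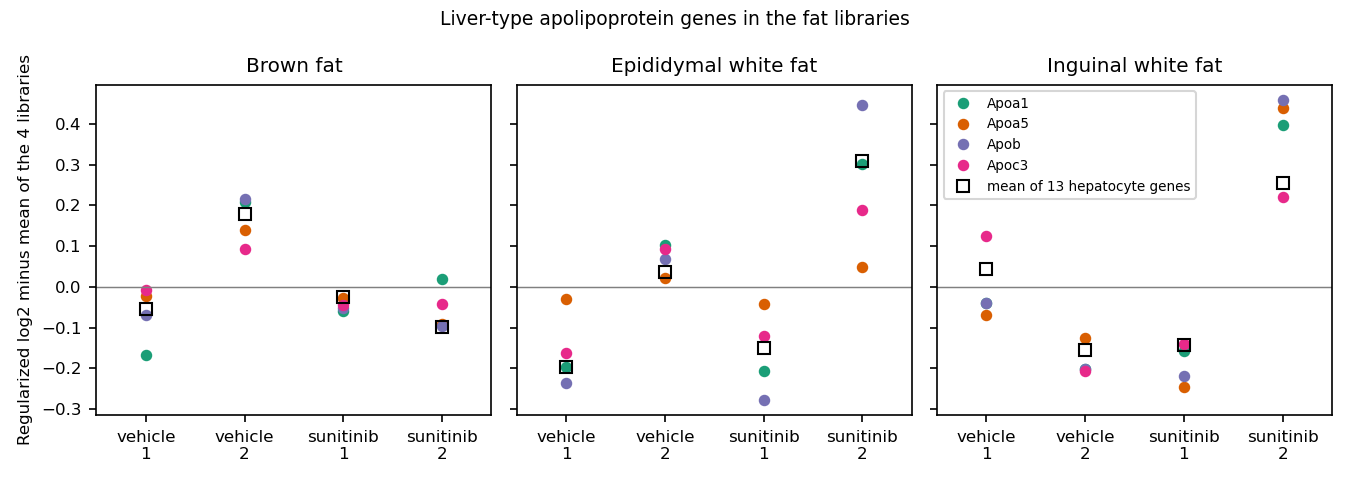
Deviation of Apoa1, Apoa5, Apob and Apoc3 (coloured points) and of the mean of 13 hepatocyte genes (open squares) from the mean of the 4 libraries of each fat depot, in regularized log2 (y axis), by library (x axis). All are highest in vehicle library 2 of brown fat and in sunitinib library 2 of the white fats, where the hepatocyte mean is 0.18, 0.31 and 0.25.

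Tissue differences in the sunitinib effect were tested directly for members measured in both tissues of a pair. Of the 6 pairs of tissues, none had a member past the adjusted interaction test in limma. The share of all genes that passed was 3.64% for brown against epididymal fat, 0.0314% for brown against inguinal fat, 0% for brown fat against liver, 0% for epididymal against inguinal fat, 3.95% for epididymal fat against liver and 0.043% for inguinal fat against liver. At an unadjusted p below 0.05, 3 of 6 members differed between brown fat and liver (background 14.4%), 3 of 6 between epididymal fat and liver (18.8%) and 1 of 7 between epididymal and inguinal fat (10.1%). The other 3 pairs had none, against backgrounds of 22% for brown with epididymal fat, 13.6% for brown with inguinal fat and 13.7% for inguinal fat with liver.

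The 3 genes of both liver pairs were Apoe, Apoc1 and Apoa5. The effect on Apoe was larger in brown fat than in liver by 0.45 ± 0.14 (limma adjusted p = 0.222) and larger in epididymal fat than in liver by 0.68 ± 0.19 (adjusted p = 0.0898). For Apoc1 the corresponding differences were 0.48 ± 0.15 (adjusted p = 0.213) and 0.34 ± 0.13 (adjusted p = 0.204) by limma. The 2 genes leaned toward fat, and Apoa5 leaned toward liver, with -0.49 ± 0.11 for brown fat minus liver (adjusted p = 0.151) and -0.36 ± 0.10 for epididymal fat minus liver (limma adjusted p = 0.0782). Between the white depots, the effect on Apod differed by 1.14 ± 0.36, epididymal minus inguinal, with an unadjusted limma p of 0.0178 and an adjusted p of 0.466. For inguinal fat against liver, Apoe differed by 0.67 ± 0.39 (limma adjusted p = 0.480). For Apoe the 2 white depots differed by 0.01 ± 0.30, with an interval from -0.70 to 0.73, too wide to read as equal. Pairs that share a tissue share its libraries, so they are not separate evidence.

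The genes whose library-to-library pattern was most like each member were found by correlation. Each gene was centred on its own mean over the 4 libraries of each table. Over the 16 libraries, Pearson's r was then taken against 10004 genes as a description without a p. For Apoe the closest was complement factor D (Cfd, adipsin), a serine protease secreted by adipocytes, at 0.958, then S100a1 at 0.949 and Coq4 at 0.936. Cfd was 14.81 and 14.73 with vehicle and 16.41 and 15.65 with sunitinib in epididymal fat, 1.26 ± 0.27 higher (limma adjusted p = 0.0905). For Apoc1 the closest were Palm (0.936), Ndufs7 (0.926) and Pcbd2 (0.918), and for Apoa5 Iws1 (0.927) and Id2 (0.915).

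Of the other 3, Apoa1 was nearest to Apoh (0.927), Apoa2 (0.914) and the liver fatty acid binding protein Fabp1 (0.908). Apob was nearest to Serpina1b (0.972), an alpha-1 antitrypsin gene, then the vitamin D binding protein Gc (0.946) and the major urinary protein Mup3 (0.915). Apoc3 was nearest to Ces3a (0.950), plasminogen (Plg, 0.948) and the murinoglobulin Mug1 (0.947). Serpina1b, Mup3 and Ces3a have near-identical paralogs, so their reads may be split. Among members, r was 0.881 between Apoa1 and Apob, 0.850 between Apoa1 and Apoc3 and 0.810 between Apob and Apoc3. It was 0.656 between the neighbours Apoe and Apoc1, and 0.032 between Apoe and Apoa1. All these points share the libraries, their normalization and the treatment.

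The other genes of lipoprotein metabolism were followed through 6 lists with 119 genes. In epididymal fat, 7 of 101 tested fell (2.06% of all genes fell) and 0 rose (0.277%). Apobec1, the enzyme that edits Apob mRNA, was 9.79 and 9.90 with vehicle and 8.72 and 8.79 with sunitinib, a fall of 1.09 ± 0.07 on the log2 scale (adjusted p = 0.0121 by limma). Apobr, a receptor that binds apolipoprotein B48, was 8.48 and 8.52 against 7.94 and 7.90 (-0.58 ± 0.06, adjusted p = 0.0289). Neither enzyme nor receptor overlapped between treatments, in a depot where Apob itself differed by 0.17 ± 0.26. The macrophage scavenger receptor Msr1 fell by 0.59 ± 0.07 (limma adjusted p = 0.0323). The phospholipid transfer protein Pltp, which remodels high density lipoproteins, was 11.67 and 12.04 against 10.94 and 10.94 (-0.91 ± 0.13, adjusted p = 0.0484).

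Nceh1, a cholesteryl ester hydrolase, fell by 0.81 ± 0.12 (limma adjusted p = 0.0492), and perlecan (Hspg2), a heparan sulphate proteoglycan that binds lipoproteins and lipase, by 0.58 ± 0.08 (adjusted p = 0.0491). The macrophage markers, of which 11 of 17 fell, moved in the same 2 libraries, and their part was not tested. None of the 7 calls, nor any other call in this depot, held when either epididymal vehicle library was left out. That of Hspg2 was also lost when either epididymal sunitinib library was left out, with differences of -0.55 and -0.60. By list, 1 of 19 other apolipoproteins and apolipoprotein-like proteins, 1 of 17 genes of apolipoprotein B assembly, 2 of 11 of high density lipoprotein remodelling, 1 of 13 around lipoprotein lipase and 2 of 18 lipoprotein receptors passed. Of 23 transcription factors known for apolipoprotein gene control none passed, and their smallest p was that of Nr2f6 (0.29 higher, adjusted p = 0.133 by limma).

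**Figure D5:**
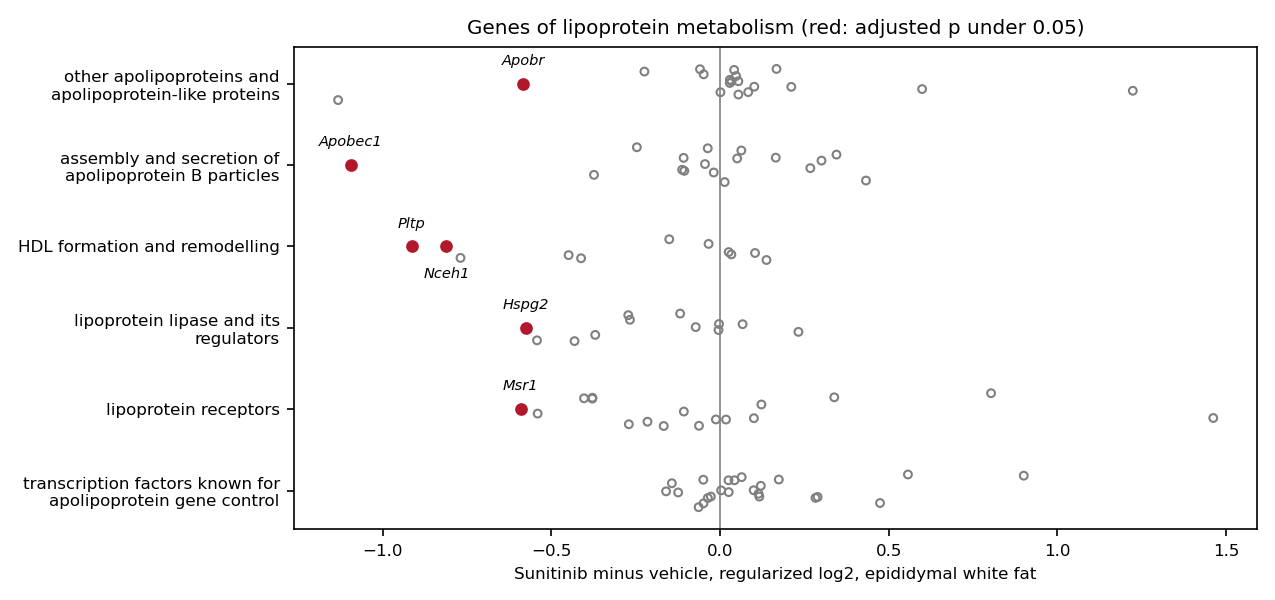
Sunitinib minus vehicle in regularized log2 (x axis) in epididymal white fat for the tested genes of 6 lists around lipoproteins that are reported here (y axis), 1 point per gene with vertical jitter, red where the limma adjusted p was under 0.05. The 6 red genes all lie below 0, from -1.09 for Apobec1 to -0.58 for Hspg2.

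In the other tissues no listed gene passed, of 81 tested in brown fat, 95 in inguinal fat and 106 in liver. At an unadjusted p below 0.05, 6 were higher and 6 lower in brown fat, near the 9.13% and 6.98% of all genes. In inguinal fat 1 was higher (background 3.88%) and 15 lower (8.8%), and in liver 7 were higher (3.47%) and 17 lower (5.17%). The share that was lower exceeded the background in both tissues, and in liver the share that was higher did so too. In liver, genes with the smallest p of their list were Ces1d, a triglyceride hydrolase (-0.58 ± 0.12), Pltp (-0.46 ± 0.12), Apol7a (-0.39 ± 0.10) and the lipogenic factor Srebf1 (-0.39 ± 0.09). Their limma adjusted p lay from 0.127 for Ces1d to 0.243 for Pltp. In inguinal fat these genes were Pcolce2 (-1.28 ± 0.14), the triglyceride synthesis enzyme Dgat2 (-0.88 ± 0.20), the receptor Vldlr (-0.85 ± 0.12), Apoo (-0.68 ± 0.13), Hspg2 (-0.62 ± 0.17) and Esrra (-0.28 ± 0.10). In brown fat they were Scarb1, the high density lipoprotein receptor (0.37 ± 0.10), Hspg2 (0.31 ± 0.08), Sorl1 (-0.36 ± 0.07), Apobr (-0.30 ± 0.08), Rora (-0.30 ± 0.08) and Cideb (-0.11 ± 0.04).

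The members' differences depended on single libraries in some tissues. When 1 library is left out, the spread comes only from the pair that stays whole. The calls over whole tables then changed widely, so only differences are given. Without vehicle library 1 of brown fat, they were 0.58 for Apoc1, -0.20 for Apoa5, -0.29 for Apob and -0.63 for Apod. Without vehicle library 2 of that depot, Apoe differed by 0.49. In inguinal fat without sunitinib library 1, the differences were 0.53 for Apoa5, 0.58 for Apob and -1.10 for Apod. In liver without sunitinib library 4, Apoa5 differed by 0.40. In epididymal fat Apoc1 ranged from 0.29 to 0.36 when 1 library was left out. Without 1 library, Apoe ranged from 0.28 to 0.49 in brown, 0.47 to 0.76 in epididymal and 0.36 to 0.85 in inguinal fat. Apod ranged from -1.12 to -0.58 in inguinal fat, and Apoa5 from 0.32 to 0.41 in liver. The groups did not overlap in these cases, so leaving out 1 library could not turn the direction.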

How the data were processed

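Total RNA was sequenced from 16 libraries, 2 for each tissue and treatment. The authors deposited regularized log2 values per gene and library, in a table for each tissue, as the table names state. The submitters' processing notes list TopHat2 2.1.1, DESeq2, bedtools, bcl2fastq 2.17.1.14 and the build mm9, with no stated roles. The annotation, counting settings and strand use were not given in the sources used here. Such values are shrunk most at low counts, so changes of low genes are understated, and the depth is unknown. The values are not whole counts, so no count model was run.

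Groups and numbers came from the titles; the sunitinib livers are numbered 3 and 4 there and 1 and 2 in the descriptions. For each table, limma 3.58.1 (R 4.3.3) was run separately (trend on, mean of at least 3, 2 residual degrees of freedom, Benjamini-Hochberg below 0.05, two-sided) and checked on simulated data. Interaction contrasts were fitted for 6 pairs of tissues with a mean per group. Alternatives were no filter, a mean of at least 5, no trend, a robust fit, quantile normalization, median centring, 1 fit over 4 tissues, a replicate block and leaving out each library.

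All 10 members are described, with each pathway gene past the test (at most 6 per list) or the one with the smallest p, and the 3 genes most like each member tested in all 4 tables; some genes that this rule names are not reported here. The members and lists were chosen with earlier results of these data known. Of 10 marker lists, those near a result are given beside it. In epididymal fat the brown adipocyte, enterocyte, endothelial and duct lists had median differences of 0.11, 0.07, -0.40 and 1.22, and the fibroblast, Schwann cell, skeletal muscle and hepatocyte lists of -0.07, 0.07, -0.14 and 0.15. Promoters came from RefSeq's GRCm38.p6 table, matched by symbol; no coordinates were joined to the expression values.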

Additional observations from a re-analysis of the deposited data

Results flagged for a closer look

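Apoa5 lay on opposite sides of vehicle in brown fat and liver: both sunitinib libraries were below both vehicle libraries in brown fat and above them in liver. The effect in brown fat minus that in liver was -0.486 in regularized log2, with an interaction p of 0.00106 in limma and an adjusted p of 0.151, which did not pass. The brown fat values, from 3.60 to 3.83, are near the limit of 3 for testing, where the values are shrunk most. No group holds 4 libraries, so single libraries were not tested as outliers.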

How the results depend on the processing

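With all libraries kept, the count of apolipoproteins past the test stayed at 0 except as follows. In epididymal fat 2 of 7 passed after quantile normalization, where 334 of 15526 genes did. They were Apoe (0.73, limma adjusted p = 0.0217) and Apoc1 (0.39, adjusted p = 0.0431). In inguinal fat 1 of 6 passed in the fit over 4 tissues, Apoe (limma adjusted p = 0.0328), where 2425 of 11113 genes did. In liver 1 of 9 passed after quantile normalization, Apoa5 (0.37, limma adjusted p = 0.0429), where 20 of 12394 genes did. Over all alternatives the limma adjusted p lay from 0.0217 to 0.412 for Apoe and 0.0431 to 0.375 for Apoc1 in epididymal fat, 0.0328 to 0.999 for Apoe in inguinal fat and 0.00402 to 0.99993 for Apoa5 in liver. In brown fat it lay from 0.0143 to 0.80002 for Apoe, 8.28e-04 to 0.80002 for Apoc1, 0.0199 to 0.867 for Apoa5, 0.0357 to 0.988 for Apob and 6.57e-05 to 0.865 for Apod, and in inguinal fat from 0.0166 to 0.999 for Apoa5, 0.0373 to 0.999 for Apob and 0.00969 to 0.999 for Apod. Leaving out 1 library changed the calls of whole tables widely, and those of members in every tissue but epididymal fat, so its counts are not given. The 7 pathway genes in epididymal fat, all lower, became 16 under median centring (1 higher) and 15 with the replicate block (5 higher). They became 5, all lower, with no filter, with no trend and after quantile normalization. The 363 calls over all 15526 genes became 1027 under median centring and 678 with the replicate block. They became 210 of 22972 with no filter, 374 with no trend and 334 after quantile normalization. In these 3 fits Pltp was lost (limma adjusted p = 0.0722, 0.0591 and 0.0623), with Nceh1 in the first 2 (0.0744 and 0.0595) and Hspg2 in the third (0.0618). In the fit over 4 tissues Nceh1 (0.121) and Msr1 (0.0961) were lost. There the 0 in inguinal fat became 20; without 1 library the pathway counts ranged from 0 to 11 in brown, 0 to 16 in epididymal and 0 to 33 in inguinal fat and 0 to 18 in liver. The interaction of epididymal fat against liver passed 467 of 11831 genes and 0 of 6 members in the main fit. It passed 1 member without the trend, 1 in the robust fit, 3 after quantile normalization and 1 under median centring. The share of all genes in those fits is not given, so they do not show whether the members stand out. In every pair the count of members changed when 1 library was left out, and these counts are not given. The cause was not tested.

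Directions turned in epididymal fat for Apoa5 (quantile normalization -0.0377, median centring -0.0786) and Apoc3 (median centring -0.0159), and in inguinal fat, after quantile normalization, for Apoc1 (0.0492) and Apoc3 (-0.00107). Without 1 library, brown fat gave -0.23 to 0.15 for Apoa1 and -0.63 to 0.13 for Apod. Epididymal fat gave -0.16 to 0.35 for Apoa1, -0.0382 to 0.0527 for Apoa5, -0.19 to 0.53 for Apob and -0.0845 to 0.22 for Apoc3. Inguinal fat gave -0.0384 to 0.52 for Apoa1, -0.15 to 0.53 for Apoa5, -0.10 to 0.58 for Apob, -0.29 to 0.21 for Apoc1 and -0.10 to 0.26 for Apoc3. Liver gave -0.13 to 0.00417 for Apoe, -0.23 to 0.0261 for Apoa1, -0.11 to 0.12 for Apoa4, -0.0213 to 0.0973 for Apob, -0.0822 to 0.0672 for Apoc1, -0.12 to 0.10 for Apoc2 and -0.0243 to 0.13 for Apoc3.

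Libraries with the same number in the fats share only a number: with 2 pairs per depot, deviations of same-numbered libraries correlated at -0.256 in brown, 0.224 in epididymal and 0.108 in inguinal fat. With the replicate block 0 members passed in each fat. No paired analysis was possible for liver because its groups share no replicate numbers.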
